A study of Mus musculus with 4 samples.

Results

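Retinoic acid is made from vitamin A by retinaldehyde dehydrogenases, carried in the cell by small binding proteins, broken down by cytochrome P450 enzymes of the Cyp26 family and sensed by nuclear receptors that pair with retinoid X receptors on DNA. The genes described here cover these steps: Aldh1a1, Aldh1a2 and Aldh1a3 for synthesis, Crabp1 and Crabp2 for binding, Cyp26b1 for breakdown, and Rara, Rarb, Rarg and Rxrg as receptors. They are 10 of the 31053 genes of the count matrix and were matched by gene symbol. They were chosen with earlier values of these data in view, among them the change of Cyp26b1 in vascular leptomeningeal nuclei from P4 to P21, so their levels are given as a description with no test. In the brain, the meninges are a known source of retinoic acid during development. A cell that makes it and a cell that degrades it can lie side by side, and the receptors tell which cells are able to respond.

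The data are single-nucleus RNA-seq of the superior colliculus, the midbrain region that receives input from the retina, from C57BL/6J mice at embryonic day 19 (E19) and at postnatal days 4 (P4), 8 (P8) and 21 (P21). Tissue of several animals was pooled into 1 library per stage, so stage and library cannot be told apart, and there is no replicate library at any stage. RNA of isolated nuclei was measured, so mature transcripts of the cytoplasm are not covered. The 9724 nuclei carried the authors' annotation into 9 classes and 35 subtypes, which is used here as given. Unique molecular identifiers (UMIs, which count captured RNA molecules) were summed over the nuclei of a class or subtype in each library and given as CPM, counts scaled to a fixed total per profile, with exact Poisson 95% intervals. These intervals, and those of shares and folds, cover counting error only and not the spread between animals. Those of CPM and folds treat UMIs as independent and leave out the spread between nuclei as well. Where a few nuclei held many of the UMIs, they are too narrow. CPM were compared between classes and stages for 1 gene at a time, never between genes.

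The 4 libraries held 2249 to 2585 nuclei with median depths of 6828 to 11745 UMIs per nucleus, and 18 nuclei had a barcode that also occurred in another library. The vascular leptomeningeal class, which holds the fibroblasts of the pia and arachnoid, had 36, 78, 70 and 139 nuclei at the 4 stages. All 13 fibroblast markers were detected there from P4 on (12 of 13 at E19), with a summed level of 10671 to 13290 CPM, against 332 to 841 CPM for the 10 mural cell markers. More fibroblast than mural UMIs were found in 36 of 36, 77 of 78, 70 of 70 and 138 of 139 nuclei. The class named epithelial had 13, 17, 32 and 40 nuclei and did not carry the markers of choroid plexus epithelium: Folr1 was at 0 UMIs in all 4 libraries, and the 7 choroid markers summed to 32.3 to 118 CPM. Ependymal markers summed to 0 to 7.39 CPM. The same nuclei had 469 to 1507 CPM of the transporter Slc47a1 and 177 to 679 CPM of E-cadherin (Cdh1). Among fibroblast markers, Bnc2 was at 5869 to 7673 CPM, above the 482 to 1257 CPM of vascular leptomeningeal nuclei. Others were below that class at every stage. Slc6a13 was at 0 to 48.5 against 696 to 1587 CPM and Col1a1 at 135 to 291 against 379 to 1264 CPM. Col1a2 and Ranbp3l were also lower. The class is therefore referred to as the nuclei annotated as epithelial.

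Across classes, the enzymes of synthesis were found mainly in the meninges and, at P21, in astrocytes, while the receptors were spread more widely. In the 5 classes with at least 50 nuclei at each postnatal stage, 8 of the 10 genes reached 20 CPM in at least 1 class. Of these 8, the vascular leptomeningeal class was at least 2-fold above every other class for 5 at P4 (Aldh1a1, Aldh1a2, Crabp2, Rarb and Rarg), 5 at P8 (Aldh1a1, Aldh1a2, Cyp26b1, Crabp2 and Rarb) and 5 at P21 (Aldh1a2, Cyp26b1, Crabp2, Rarb and Rarg). Folds for these counts were taken on the log2(CPM + 5) scale. They compare whole classes, and single subtypes could come near or above the meningeal level. At P21 Rarg was at 50.1 CPM in oligodendrocyte precursors against 53.4 CPM in vascular leptomeningeal nuclei. Rarb was at 304 CPM in IN12 inhibitory neurons against 244 CPM. Among all genes at that level, 7.64% were highest in this class by the same margin at P4, 9.33% at P8 and 8.11% at P21. The genes were chosen on these levels, so nothing is read from the difference. Against all 9 classes, those with few nuclei included, the numbers were 1, 4 and 2. The share of all genes was then 1.92%, 1.99% and 1.57%.

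**Figure D1:**
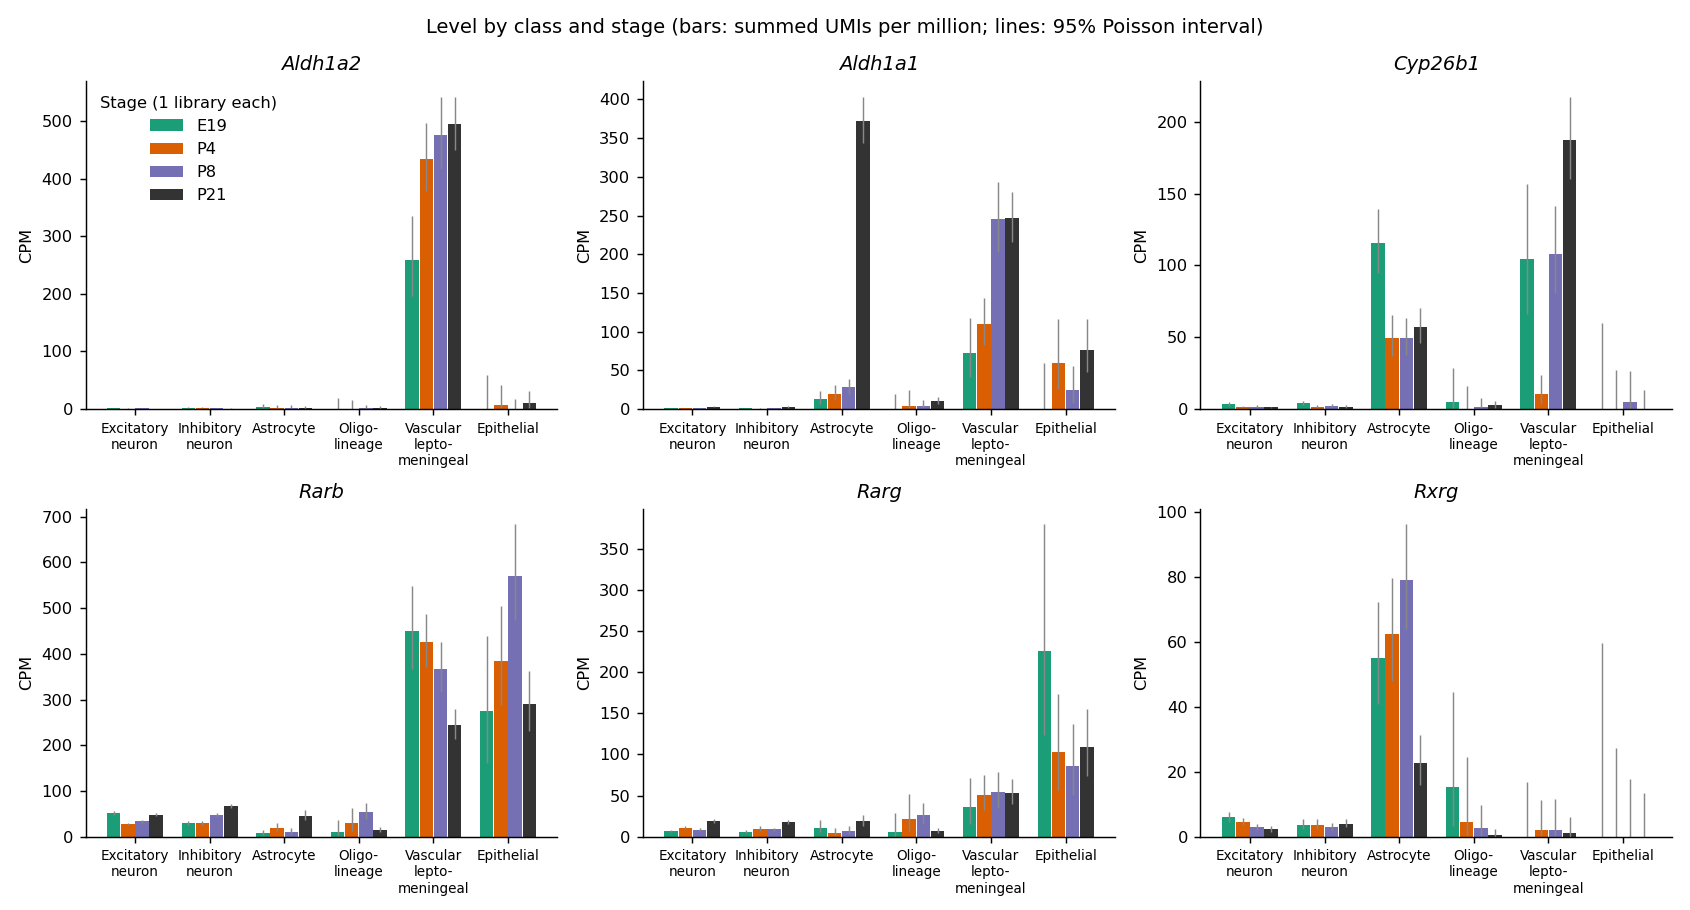
Levels of Aldh1a2, Aldh1a1, Cyp26b1, Rarb, Rarg and Rxrg in 6 classes (x axis) in CPM (y axis, own scale per gene), 1 bar per stage with its 95% Poisson interval. Aldh1a2 stood at 259 to 495 CPM in vascular leptomeningeal nuclei and at 10.9 CPM or less in the other classes plotted, and Aldh1a1 in astrocytes was at 373 CPM at P21 against 28.2 CPM or less before.

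Aldh1a2 (ENSMUSG00000013584, chr9:71215789-71296243, plus strand, GRCm38), the main retinoic acid synthesizing enzyme of the embryo, was close to a marker of the meningeal class. Its level in vascular leptomeningeal nuclei was 259 CPM (196 to 336, 57 UMIs) at E19, 435 CPM (378 to 497) at P4, 476 CPM (416 to 542) at P8 and 495 CPM (450.4 to 543) at P21. The intervals of the 3 postnatal stages overlapped, and E19 lay below them. A smaller set of these nuclei held at least 3 fibroblast marker UMIs and no mural one (7, 13, 7 and 43 nuclei at the 4 stages). In that set Aldh1a2 was at 280 CPM at P4 (173 to 427, 21 UMIs) and 581 CPM at P21 (491 to 682), which did not overlap. Excitatory and inhibitory neurons together had 0.940 CPM at P4 and 0.386 CPM at P21, so the meningeal class was 462-fold (292 to 772) and 1282-fold (691 to 2692) above them. Astrocytes never had more than 3 UMIs of Aldh1a2 at any stage. Microglia, which are not plotted, had 45.0 CPM at P21, from 5 UMIs in 33 nuclei. The nuclei annotated as epithelial had 0 to 3 UMIs, a level at P21 of 10.9 CPM that was 0.0221 times that of the vascular leptomeningeal class (0.00453 to 0.0649).

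At full depth Aldh1a2 was detected in most meningeal nuclei, but its UMIs were spread unevenly among them. Nuclei with at least 5 UMIs each held 53.3% of the UMIs at P4 (14 of 78 nuclei), 52.4% at P8 (15 of 70) and 59.5% at P21 (32 of 139). At least 1 UMI of Aldh1a2 was seen in 20 of 36 nuclei at E19, 57 of 78 at P4, 62 of 70 at P8 and 115 of 139 at P21. After every nucleus was thinned to 2300 UMIs, which removes differences in depth, the shares were 38.9%, 56.4%, 65.7% and 61.2%. The thinned share at P21 in excitatory neurons, which should lack the enzyme, was 0.147% (0.00371 to 0.814).

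Aldh1a1 (ENSMUSG00000053279, chr19:20492715-20643465, plus strand), a second retinaldehyde dehydrogenase, appeared in both the meninges and astrocytes, at different times. In vascular leptomeningeal nuclei it was at 72.7 CPM (41.6 to 118, 16 UMIs) at E19, 109.7 CPM (82.4 to 143) at P4, 245 CPM (203 to 294) at P8 and 246 CPM (215 to 281) at P21. Over all nuclei of the class the step lay between P4 and P8, where the level was 2.24-fold higher (1.61 to 3.15), and P8 and P21 had nearly the same value. In the set with at least 3 fibroblast and no mural UMIs, Aldh1a1 was at 79.9 CPM at P4 (29.3 to 174, 6 UMIs). There P8 had 298 CPM (163 to 499, 14 UMIs) and P21 had 168 CPM (121 to 226). The P21 to P4 fold in that set was 2.10, with an interval that took in 1 (0.889 to 6.03). Nuclei with a UMI made up 7 of 36, 26 of 78, 38 of 70 and 70 of 139. The nuclei annotated as epithelial had Aldh1a1 too, with 0, 8, 5 and 21 UMIs at the 4 stages. Their level was 59.1 CPM at P4, 24.0 CPM at P8 and 76.4 CPM at P21. At P4 this was 0.539 times the vascular leptomeningeal level (0.222 to 1.14) and at P21 0.310 times (0.188 to 0.486). Against all neurons it was 28.7-fold higher at P21 (16.7 to 47.3).

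In astrocytes the change came later and was larger. Aldh1a1 stood at 12.96 CPM (6.69 to 22.6, 12 UMIs) at E19, 19.8 CPM (12.1 to 30.6) at P4, 28.2 CPM (19.7 to 39.2) at P8 and 373 CPM (344 to 404, 606 UMIs) at P21. The P21 library was 28.8-fold above E19 (16.3 to 56.0) and 13.2-fold above P8 (9.39 to 19.1), whereas the intervals of the earlier stages overlapped. The 13 fibroblast markers summed to 135 to 223 CPM in astrocytes, with 151 CPM at P21; their part in the Aldh1a1 level was not tested. The share of astrocytes with a UMI after thinning was 3.57%, 3.59%, 4.29% and 41.8%. At P21 excitatory neurons, with a median depth of 19601 UMIs against 5525 in astrocytes, had a thinned share of 0.147%.

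Both astrocyte subtypes of the annotation showed this P21 level. Protoplasmic astrocytes, the type of grey matter, had 10.9, 20.4, 18.6 and 311 CPM of Aldh1a1 at E19, P4, P8 and P21, from 155, 175, 188 and 232 nuclei. Fibrous astrocytes, the type of white matter, had 20.99, 17.7, 72.7 and 754 CPM, from 41, 48, 45 and 55 nuclei. The P21 values did not overlap (282 to 342 against 645 to 876), and 80.0% of fibrous against 53.0% of protoplasmic nuclei had a UMI. From E19 to P21 the fold was 35.9 (13.8 to 133) in fibrous and 28.6 (14.4 to 66.6) in protoplasmic nuclei, and these intervals overlap widely.

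**Figure D2:**
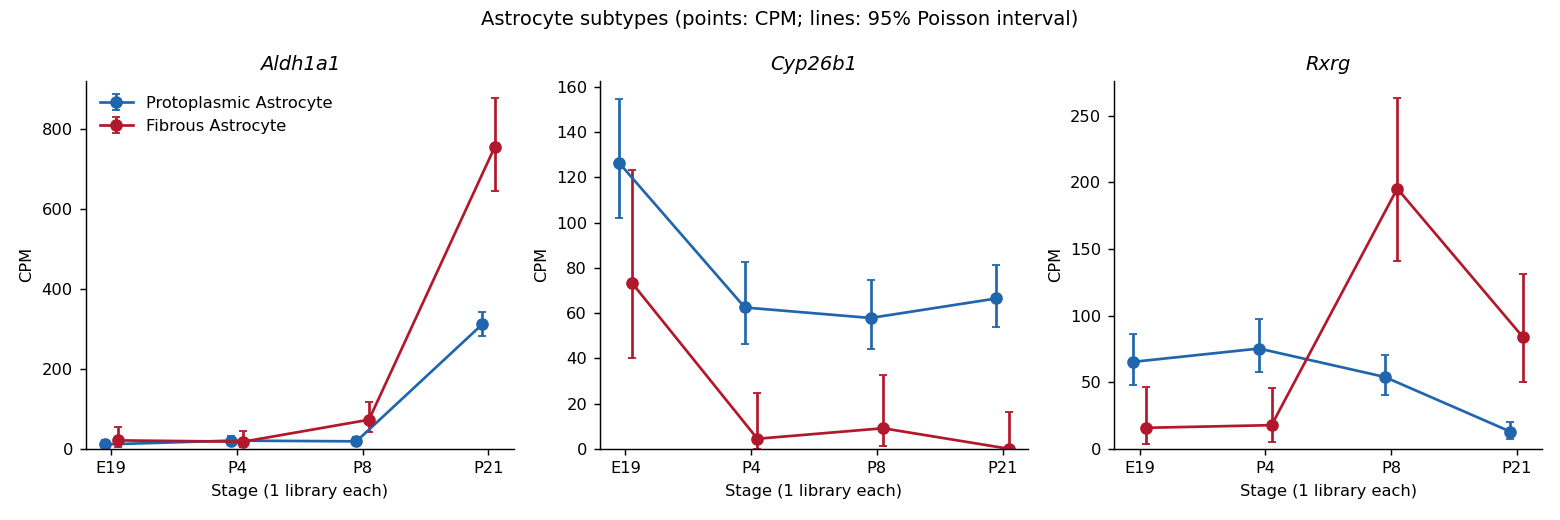
Levels of Aldh1a1, Cyp26b1 and Rxrg in CPM (y axis) by stage (x axis) in protoplasmic (blue) and fibrous (red) astrocytes, with 95% Poisson intervals. Aldh1a1 was high in both subtypes only at P21, Cyp26b1 was higher in protoplasmic astrocytes after birth, and Rxrg was lower at P21 than at E19 in protoplasmic nuclei (12.9 against 65.2 CPM) and higher in fibrous ones (83.8 against 15.7 CPM), while from P8 to P21 it was lower in both.

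Aldh1a3 (ENSMUSG00000015134, chr7:66390890-66427517, minus strand), the remaining retinaldehyde dehydrogenase, was almost undetected. The 4 libraries held 2, 2, 6 and 7 UMIs of it in all nuclei, and vascular leptomeningeal nuclei had at most 1 UMI per library. No change of Aldh1a3 could be measured at this depth.

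The cellular binding proteins differed from each other. Crabp2 (ENSMUSG00000004885, chr3:87948666-87953376, plus strand), which delivers retinoic acid to receptors in the nucleus, was at 50.01 CPM (24.97 to 89.5, 11 UMIs), 22.3 CPM (11.2 to 39.97), 20.8 CPM (9.96 to 38.2) and 20.7 CPM (12.5 to 32.3) in vascular leptomeningeal nuclei at E19, P4, P8 and P21. The intervals of all 4 stages overlapped. Both neuron classes had 0.442 to 2.35 CPM. Crabp1 (ENSMUSG00000032291, chr9:54764748-54773110, plus strand), the other binding protein, had 0 UMIs in vascular leptomeningeal nuclei at every stage, which at P21 allows up to 3.27 CPM (3 counts). Excitatory neurons had 11 of its few UMIs at E19, 13 at P4 and 1 at P21. At E19, 19 of its 21 UMIs were in neurons, which also made up 2231 of 2585 nuclei. Scaled to depth, all neurons were at 1.09 CPM there and astrocytes at 2.16 CPM (2 UMIs). That fold was 1.99 with an interval that took in 1 (0.225 to 8.24), so no class stood out for Crabp1.

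Cyp26b1 (ENSMUSG00000063415, chr6:84571414-84593908, minus strand), which oxidizes retinoic acid and so clears it, had 2 main sites, astrocytes and the meninges. Astrocytes had 116 CPM (94.7 to 139.6, 107 UMIs) at E19, 49.5 CPM (36.8 to 65.3) at P4, 49.2 CPM (37.6 to 63.2) at P8 and 57.2 CPM (46.2 to 70.1) at P21. E19 was above every later stage, P4 being 0.429 times as high (0.300 to 0.605), and the postnatal values overlapped. The 2 neuron classes stayed at 1.03 to 3.86 CPM. Astrocytes were 32.6-fold above all neurons at E19 (23.6 to 45.3) and 44.9-fold at P21 (29.9 to 69.0).

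Within astrocytes Cyp26b1 was a feature of the protoplasmic subtype after birth. Protoplasmic nuclei had 126, 62.5, 57.8 and 66.5 CPM at E19, P4, P8 and P21. Fibrous nuclei had 73.5 CPM (40.2 to 123) at E19, where 7 of their 14 UMIs came from 1 nucleus, and then 1, 2 and 0 UMIs at P4, P8 and P21. The count of 0 in 55 fibrous nuclei at P21 allows up to 13.2 CPM (3 counts), below the 53.6 to 81.4 CPM of the protoplasmic nuclei. At P21, therefore, the synthesis gene Aldh1a1 was higher in fibrous nuclei and the breakdown gene Cyp26b1 in protoplasmic ones.

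In the meninges Cyp26b1 was low at P4 and higher at P8 and P21. It stood at 105 CPM (66.3 to 157, 23 UMIs) at E19, 10.2 CPM (3.30 to 23.7, 5 UMIs) at P4, 108 CPM (80.7 to 142) at P8 and 187 CPM (161 to 218, 172 UMIs) at P21. P21 was 18.5-fold above P4 (7.76 to 57.6), and P8 was 10.6-fold above P4 (4.28 to 34.1). The E19 level rested on 1 nucleus that held 18 of the 23 UMIs; without it, the level was 23.9 CPM. With E19 in place of P4 as the first stage, the log2 difference to P21 was 0.81 against 3.67. The 7 astrocyte markers summed to 3210, 2802, 2961 and 1511 CPM in vascular leptomeningeal nuclei at the 4 stages, against 2247 to 6677 CPM in astrocytes. The water channel gene Aqp4, an astrocyte marker, was at 0, 24.4, 41.6 and 37.1 CPM in the same meningeal nuclei, and the part of astrocyte RNA in their Cyp26b1 level was not tested. In the set with at least 3 fibroblast and no mural UMIs, Cyp26b1 had 0 UMIs in 13 nuclei at P4, 255 CPM at P8 (132 to 445, 12 UMIs in 7 nuclei) and 140.3 CPM at P21 (98.2 to 194).

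Fewer meningeal nuclei had Cyp26b1 than Aldh1a2. A UMI was found in 4 of 36 nuclei at E19, 4 of 78 at P4, 12 of 70 at P8 and 43 of 139 at P21. At P21, 14 nuclei with at least 5 UMIs each held 72.1% of all its UMIs, and at P8, 4 such nuclei held 75.0%. The corresponding shares at P21 were 59.5% for Aldh1a2, in 32 nuclei, and 29.9% for Rarb, in 9. Such numbers are not on 1 scale between genes. Intronic reads were counted, and Cyp26b1 spans 22495 bases, Aldh1a2 80455 and Rarb 388318. The part of gene length or level in these differences was not tested.

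**Figure D3:**
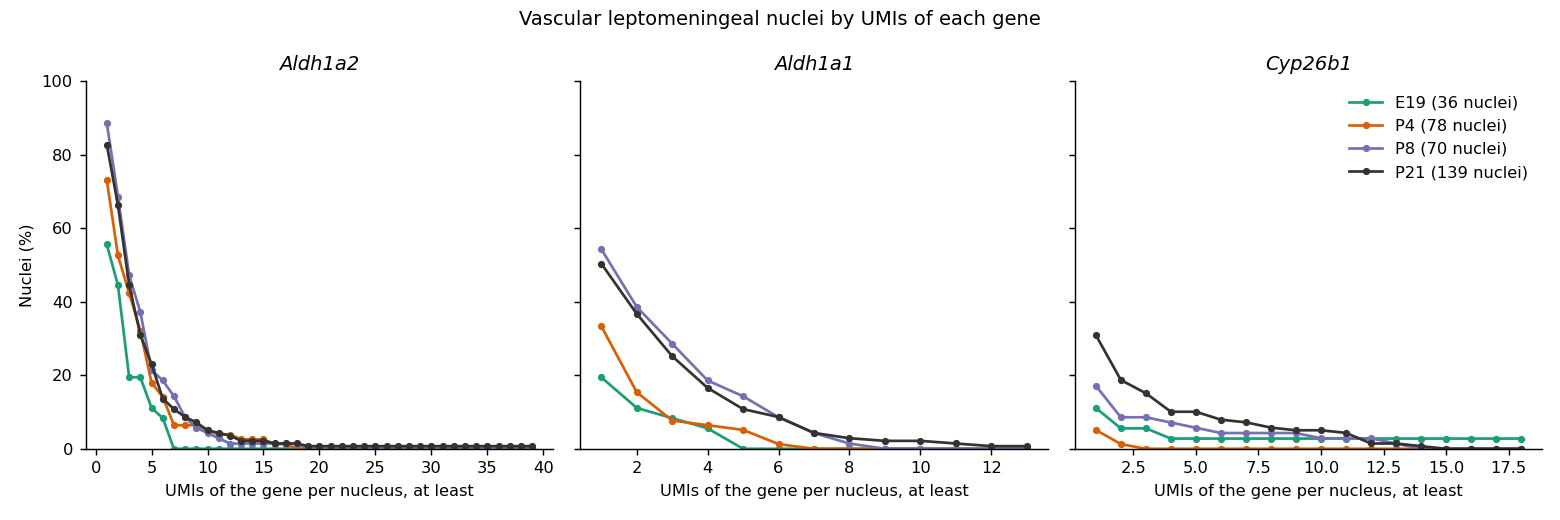
Share of vascular leptomeningeal nuclei (y axis, percent) with at least the number of UMIs on the x axis, for Aldh1a2, Aldh1a1 and Cyp26b1, 1 line per stage. Aldh1a2 was seen in most nuclei from E19 on, while Cyp26b1 was seen in 5.13% of nuclei at P4 and 30.9% at P21.

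Most nuclei with Cyp26b1 at P21 had the synthesis enzyme too. Of the 43 nuclei with Cyp26b1 at P21, 38 also had a UMI of Aldh1a2, and the share with Cyp26b1 was 33.0% (24.6 to 42.4) among nuclei with Aldh1a2 and 20.8% (7.13 to 42.2) among those without. Those intervals overlap, and the nuclei with Aldh1a2 were deeper, with a median of 6543 against 4738 UMIs. After thinning of all nuclei to 2300 UMIs the shares were 22.4% (14.0 to 32.7) and 22.2% (12.04 to 35.6). For Aldh1a1 at P21, 42.9% of the 70 nuclei with it (31.1 to 55.3) and 18.8% of the 69 without it (10.4 to 30.1) had Cyp26b1, at median depths of 6261 and 6075 UMIs. At P8 the same shares were 26.3% (13.4 to 43.1) and 6.25% (0.766 to 20.8). The intervals lay apart at P21 and overlapped at P8. After thinning, the P21 shares were 38.3% (24.5 to 53.6) of 47 nuclei with Aldh1a1 and 14.1% (7.74 to 22.95) of 92 without it, which again lay apart. At E19 the unthinned shares were 14.3% with Aldh1a1 and 10.3% without it, and at P4 7.69% and 3.85%, with overlapping intervals. Astrocytes also had both genes at P21. The part of astrocyte RNA in this joint detection, or in the Aldh1a1 level of the meningeal nuclei, was not tested.

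The neuron subtypes with the highest Cyp26b1 means over libraries were EN10, IN9 and IN4. EN10 excitatory neurons had 50.6 CPM (28.9 to 82.1, 16 UMIs in 7 of 49 nuclei, 7 of them from 1 nucleus), and 0, 8.35 and 1.85 CPM at P4, P8 and P21. IN9 inhibitory neurons had 32.5 CPM (10.5 to 75.8, 5 UMIs) at E19. IN4 did not pass 6.65 CPM at any stage.

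Rarb (ENSMUSG00000017491, chr14:16430839-16819156, minus strand), the retinoic acid receptor beta gene, is known as a direct target of retinoic acid in many tissues. In vascular leptomeningeal nuclei it was at 450.1 CPM (366 to 548, 99 UMIs) at E19, 426 CPM (371 to 488) at P4, 368 CPM (316 to 426) at P8 and 244 CPM (213 to 278) at P21. E19, P4 and P8 overlapped, and P21 lay below all of them, at 0.573 times the P4 level (0.472 to 0.694). That direction did not hold in the nuclei with at least 3 fibroblast and no mural UMIs, where Rarb was at 479 CPM (279 to 767, 17 UMIs) at E19, 186 CPM (102 to 313, 14 UMIs) at P4, 213 CPM (102 to 391, 10 UMIs) at P8 and 288 CPM (226 to 362) at P21. There P21 was 1.55 times P4, with an interval that takes in 1 (0.866 to 2.97). The nuclei annotated as epithelial had 275 CPM (160.1 to 440.0, 17 UMIs), 384 CPM (287 to 504), 571 CPM (473 to 683) and 291 CPM (231 to 362), which overlapped the vascular leptomeningeal values at E19, P4 and P21. At P8 they were 1.55-fold higher (1.22 to 1.97). Rarb overlaps Top2b and Gm48162 on the opposite strand, and the sources used here do not say whether counting used strand, so some of its UMIs could belong to them. The same holds for Aldh1a1 with C730002L08Rik and Gm6684, and for Aldh1a2 with Gm48124. Rara overlaps Gm22061 on its own strand, where use of strand would not tell the 2 genes apart.

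The 250 bases before annotated transcript starts of each gene were searched for direct repeats of the hexamer AGGTCA or any of its variants, which were AGTTCA, then also GGTTCA, and lastly GGGTCA, on both strands, with 2 or 5 bases between them. Such repeats are the known recognition sequence of retinoic acid receptors paired with retinoid X receptors. RefSeq windows (GRCm38.p6) were at hand for 8 of the 10 genes, 14 windows in all, and 1 of the 8, Rarb, held a repeat, with 5 bases between the hexamers, 53 to 37 bases before that transcript's start. This start lies inside the gene as GENCODE draws it, 243680 bases from its outermost 5′ end. Of 32851 windows in all, 0.0883% held a repeat with 5 bases between and 0.174% one with 2. Counted by gene, the shares were 0.104% and 0.204% of 27025 genes. The window of Rarb is shown with the 2 hexamers in capitals, next to those of Aldh1a2 and Cyp26b1, the meningeal synthesis and breakdown genes, in which these letters were not found. All run 5′ to 3′ on the strand of the gene and end at the base before the RefSeq start. The match describes the letters only.
Rarb, chr14:16575477-16575726, minus strand: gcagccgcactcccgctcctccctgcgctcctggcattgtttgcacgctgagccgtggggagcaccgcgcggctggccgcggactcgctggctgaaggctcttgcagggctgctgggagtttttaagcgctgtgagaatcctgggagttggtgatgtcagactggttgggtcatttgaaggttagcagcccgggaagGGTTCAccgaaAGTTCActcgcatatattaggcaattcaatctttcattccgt
Aldh1a2, chr9:71215539-71215788, plus strand: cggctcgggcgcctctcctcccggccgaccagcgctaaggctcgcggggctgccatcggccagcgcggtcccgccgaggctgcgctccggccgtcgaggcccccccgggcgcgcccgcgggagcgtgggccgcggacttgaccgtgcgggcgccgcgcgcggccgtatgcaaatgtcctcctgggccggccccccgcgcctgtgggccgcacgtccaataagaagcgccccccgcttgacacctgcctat
Cyp26b1, chr6:84593811-84594060, minus strand: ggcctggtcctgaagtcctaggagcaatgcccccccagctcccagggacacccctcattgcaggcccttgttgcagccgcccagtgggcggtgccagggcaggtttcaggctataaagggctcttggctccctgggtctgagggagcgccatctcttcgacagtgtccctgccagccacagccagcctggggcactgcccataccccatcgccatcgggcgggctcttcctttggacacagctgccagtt

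In neurons, Rarb differed more between subtypes than between the 2 classes. Excitatory neurons had 52.1 CPM (48.0 to 56.5) at E19, 27.1 CPM (24.5 to 29.9) at P4, 33.6 CPM (30.5 to 36.9) at P8 and 47.9 CPM (44.4 to 51.5) at P21, so the level was lowest at P4. Inhibitory neurons had 29.4 CPM (25.2 to 34.0), 30.5 CPM (26.4 to 35.1), 47.8 CPM (43.8 to 52.1) and 66.4 CPM (61.7 to 71.3), with P21 2.26-fold above E19 (1.91 to 2.68). These 2 orders of stages are not the same: E19 and P21 overlapped in excitatory neurons and stood far apart in inhibitory ones.

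IN12 inhibitory neurons had the highest mean over libraries, 175 CPM. Their Rarb level was 85.3 CPM (40.9 to 157, 7 of 10 UMIs from 1 nucleus) at E19, 66.1 CPM (31.7 to 122) at P4, 246 CPM (199 to 302) at P8 and 304 CPM (238 to 382) at P21, with 22 to 44 nuclei per library. P21 was 4.60-fold above P4 (2.36 to 9.99). EN8 excitatory neurons followed with 54.9, 84.9, 155 and 134 CPM at E19, P4, P8 and P21, from 46 to 68 nuclei; at P21, 34 UMIs came from 1 nucleus, and the level without it was 111 CPM. IN10 inhibitory neurons came next and stayed level, at 78.7, 104, 105 and 104 CPM, with a P21 to P4 ratio of 0.995 (0.578 to 1.77). IN5, at a mean of 96.1 CPM, had a range over libraries (36.5 to 138 CPM) that took in all 4 values of IN10.

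At the other end, EN10 and EN9 had means of 6.57 and 7.88 CPM, and EN9 had 0 UMIs of Rarb in 31 nuclei at P4. Over the 23 neuron subtypes with at least 20 nuclei at both stages, Rarb was higher at P21 than at P4 in 22, and the interval of the fold lay above 1 in 10 and below 1 in none (0). IN10 was the subtype that was not higher. From E19 to P21 Rarb was higher in 17 and lower in 6, with intervals above 1 in 8 and below 1 in 1. The subtypes share 1 library per stage, so they are not independent observations.

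**Figure D4:**
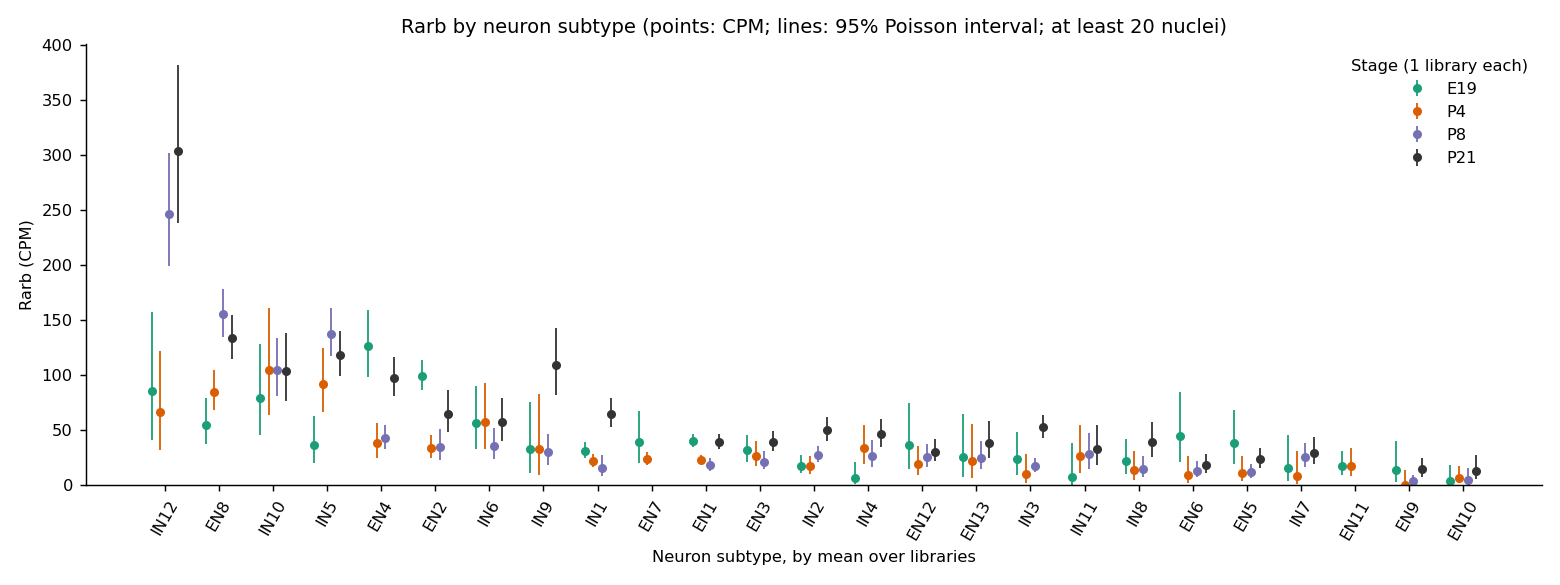
Rarb in CPM (y axis) in each neuron subtype (x axis, ordered by the mean over libraries), 1 point per stage with its 95% Poisson interval, for subtypes with at least 20 nuclei in that library. IN12 reached 304 CPM at P21, while EN9 and EN10 stayed at or below 14.2 CPM.

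Astrocytes had little Rarb before P21. The levels were 7.56 CPM (3.04 to 15.6, 7 UMIs) at E19, 18.8 CPM (11.3 to 29.4) at P4, 10.5 CPM (5.58 to 17.9) at P8 and 46.1 CPM (36.3 to 57.8, 75 UMIs) at P21. P21 lay above every earlier stage, 4.40-fold above P8 (2.42 to 8.65). Like Aldh1a1, Rarb was highest in astrocytes at the last stage. In oligodendrocyte precursors Rarb was at 10.5 CPM (1.27 to 37.9, 2 UMIs) at E19, 41.6 CPM (16.7 to 85.7) at P4, 66.4 CPM (45.9 to 92.7) at P8 and 20.03 CPM (7.35 to 43.6) at P21.

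Rara (ENSMUSG00000037992, chr11:98927818-98974942, plus strand), the receptor alpha gene, was low in neurons and astrocytes at all stages. Excitatory neurons had 13.2 CPM (11.2 to 15.5) at E19, 17.1 CPM (15.1 to 19.4) at P4, 16.6 CPM (14.5 to 19.0) at P8 and 9.45 CPM (7.94 to 11.2) at P21. P21 was below each of the others and 0.552 times P4 (0.445 to 0.682). Inhibitory neurons had 14.6, 13.8, 17.1 and 11.1 CPM, with P21 at 0.648 times P8 (0.513 to 0.817). Vascular leptomeningeal nuclei had 27.3, 32.5, 24.9 and 20.7 CPM from 6 to 19 UMIs, all overlapping. They were 2.02-fold above all neurons at P4 (1.14 to 3.32) and 2.04-fold at P21 (1.21 to 3.25), while the intervals took in 1 at E19 (1.997-fold, 0.725 to 4.41) and P8 (1.48-fold, 0.760 to 2.62). The nuclei annotated as epithelial had 16.2, 22.2, 57.6 and 25.5 CPM from 1, 3, 12 and 7 UMIs. At P8 their level was 3.43-fold above all neurons (1.76 to 6.05). It was 2.31-fold above vascular leptomeningeal nuclei at that stage, with an interval that took in 1 (0.949 to 5.62). By their means over libraries the neuron subtypes EN6 (26.5 CPM), IN6 (20.9 CPM) and IN10 (20.2 CPM) were highest, with overlapping ranges.

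Rarg (ENSMUSG00000001288, chr15:102234938-102257517, minus strand), the receptor gamma gene, was highest in neurons at P21, where Rara was lowest. Excitatory neurons had 6.68 CPM (5.27 to 8.35) at E19, 10.7 CPM (9.08 to 12.5) at P4, 8.49 CPM (6.99 to 10.2) at P8 and 18.9 CPM (16.7 to 21.3) at P21. Inhibitory neurons had 5.70, 9.71, 9.11 and 17.4 CPM. P21 was 2.83-fold above E19 in excitatory neurons (2.19 to 3.69) and 3.06-fold in inhibitory neurons (2.12 to 4.54). The direction was the same in all 23 neuron subtypes with enough nuclei, with the interval above 1 in 6 of them. Rara, by contrast, was lower at P21 than at E19 in 15 of the same 23 subtypes. All subtypes come from the same E19 and P21 libraries, so these counts are not independent observations. EN9 (17.7 CPM), EN6 (14.9 CPM) and EN3 (13.2 CPM) had the highest Rarg means.

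Outside neurons Rarg had its highest values in the nuclei annotated as epithelial: 226 CPM (124 to 380, 14 UMIs in 13 nuclei) at E19, 103 CPM (56.6 to 174) at P4, 86.4 CPM (51.2 to 137) at P8 and 109.1 CPM (73.6 to 156) at P21. Vascular leptomeningeal nuclei had 36.4 CPM (15.7 to 71.7), 50.8 CPM (32.9 to 74.9), 54.0 CPM (35.3 to 79.2) and 53.4 CPM (39.5 to 70.6), all overlapping. At P21 the former was 2.04-fold above the latter (1.25 to 3.28). Oligodendrocyte precursors had 5.25, 29.7, 37.1 and 50.1 CPM at E19, P4, P8 and P21 (1, 5, 19 and 15 UMIs). Myelinating oligodendrocytes had 1 UMI in 187 nuclei at P21, a level of 0.638 CPM (0.0162 to 3.55), and committed oligodendrocytes had 0 in 55, which allows up to 6.18 CPM.

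Rxrg (ENSMUSG00000015843, chr1:167598384-167639623, plus strand) encodes a retinoid X receptor, the partner with which retinoic acid and thyroid hormone receptors bind DNA. Its level in astrocytes was 55.1 CPM (41.0 to 72.4, 51 UMIs) at E19, 62.4 CPM (47.9 to 79.8) at P4, 79.0 CPM (64.1 to 96.3) at P8 and 22.8 CPM (16.02 to 31.4) at P21. P21 was below every earlier stage and 0.413 times E19 (0.263 to 0.644). All neurons together had 2.88 to 5.20 CPM. Vascular leptomeningeal nuclei had 0, 1, 1 and 1 UMIs.

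The 2 astrocyte subtypes differed in direction from E19 to P21 and from P4 to P21, but not from P8 to P21. Protoplasmic nuclei had 65.2 CPM of Rxrg at E19 (48.1 to 86.5), 75.2 CPM (57.3 to 97.1) at P4, 53.9 CPM (40.6 to 70.2) at P8 and 12.9 CPM (7.62 to 20.3) at P21. Fibrous nuclei had 15.7 CPM (3.25 to 46.0, 3 UMIs) at E19, 17.7 CPM (4.83 to 45.4, 4 UMIs) at P4, 195 CPM (141 to 263) at P8 and 83.8 CPM (50.4 to 131) at P21. From E19 to P21 the fold was 0.197 in protoplasmic (0.108 to 0.345) and 5.32 in fibrous nuclei (1.57 to 28.1). With the 2 subtypes weighted alike, the log2 difference over the class was 0.23, against -1.11 as captured, so the class value reflects the larger number of protoplasmic nuclei.

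IN3 inhibitory neurons had the highest Rxrg mean among neuron subtypes, 8.67 CPM. They had 2, 1 and 13 UMIs at E19, P4 and P8 and 35 at P21, when the level was 17.6 CPM (12.2 to 24.4) and 31 of 126 nuclei had a UMI. EN2 and EN1 followed with 7.05 and 5.98 CPM. For the genes that neurons hardly had, the 3 subtypes with the highest means rested on 1 to 12 UMIs each over all libraries: IN9, IN7 and IN5 for Aldh1a1, IN8, IN5 and IN3 for Aldh1a2, EN3, EN10 and IN2 for Aldh1a3, IN8, EN13 and EN10 for Crabp1, and IN7, EN7 and IN4 for Crabp2. None of those means was above 5.02 CPM.

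Set against all genes, the changes with stage were as follows, counted on the log2(CPM + 5) scale over genes that reached 20 CPM at either stage. In vascular leptomeningeal nuclei from P4 to P21, 2 of 7 members at that level were at least 2-fold higher (Aldh1a1 and Cyp26b1), against 4.21% of 8433 genes, and 0 were lower, against 11.9%. In astrocytes from E19 to P21, 2 of 4 were higher (Aldh1a1 and Rarb), against 8.6% of 8577 genes, and 1 was lower (Rxrg), against 18.2%. In inhibitory neurons the 1 gene at that level, Rarb, was higher, against 5.83% of genes, with 11.3% lower. In excitatory neurons Rarb, again the 1 gene at that level, was neither higher nor lower, against 5.35% and 10.7%.

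These shares are given as background, because the choice of the genes used the same contrasts. The median log2 difference was 0.07 over the 7 members and -0.19 over all genes in vascular leptomeningeal nuclei, and 0.54 over the 4 members and -0.24 over all genes in astrocytes. Scaling by the median of gene-wise ratios in place of total UMIs would shift every log2 difference by 0.21 and 0.28 in these 2 classes, so that a gene at the median would be near 0.

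Other genes of the pathway came from a list of 27. In classes and stages with at least 50 nuclei, 14 of the 27 reached 50 CPM and 13 did not. Of the 14, 8 were highest in vascular leptomeningeal nuclei, by any margin, as were 30.9% of the 7307 genes that reached this level. Rbp4, the retinol carrier of blood, was highest at P21, at 66.5 CPM (50.9 to 85.4). Rdh10, which oxidizes retinol to retinaldehyde in the step before the Aldh1a enzymes, stood at 91.4 CPM (66.6 to 122) at P4, 76.9 CPM (54.1 to 106) at P8 and 31.6 CPM (21.2 to 45.4) at P21.

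Thus Rdh10 was lower at P21 than at P4 in the class in which Aldh1a1 was higher. Among classes with at least 50 nuclei, astrocytes had the top values of 2 other enzymes between retinol and retinaldehyde: Rdh5, a retinol dehydrogenase, at 54.5 CPM (41.0 to 70.9) at P4, and Dhrs3, which turns retinaldehyde back to retinol, at 89.6 CPM (71.4 to 111) at E19. Dhrs3 was at 34.7, 42.7 and 44.9 CPM at P4, P8 and P21 in astrocytes, where E19 was highest as it was for Cyp26b1, and at 119 to 193 CPM in the 13 to 33 microglia. Fabp5, which carries retinoic acid to the receptor Ppard, was at 284 CPM in astrocytes at E19 (251 to 320) and 33.8 CPM (25.5 to 44.0) at P21. Ppard was highest in vascular leptomeningeal nuclei at P4, at 122 CPM (93.0 to 157).

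Several receptor coregulators were also above this level. Ncor1 (457 CPM at P8), Ncoa2 (424 CPM at P4), Ncoa3 (231 CPM at P21) and Nrip1 (137 CPM at P8) had their top values in vascular leptomeningeal nuclei and Ncoa1 in astrocytes (663 CPM at P21). Ttr, the partner of Rbp4 in plasma and a product of the choroid plexus, was at 662 CPM in astrocytes (612 to 714), 118 CPM in vascular leptomeningeal nuclei (89.4 to 152) and 72.6 CPM in excitatory neurons (68.4 to 77.1) at P4, and at 3.08 CPM or less in the same 3 classes at the other stages. The P4 library thus stood apart for this gene in all of these classes. Whether RNA from outside the nuclei plays a part in other P4 values, such as the low Cyp26b1 of the meninges, was not tested. The 2 other Cyp26 genes, Cyp26a1 and Cyp26c1, did not pass 0.205 CPM in any class with enough nuclei.

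The genes with the most similar profiles were ranked by Pearson's r of log2(CPM + 5) over the 18 class and stage profiles with at least 50 nuclei, among 4425 genes. These profiles share libraries and classes, so r is a description. For Aldh1a2 they were 4921539H07Rik, the betaine transporter gene Slc6a12 and the transcription factor gene Osr1, at r = 0.996, 0.994 and 0.994. For Aldh1a1 they were the gap junction gene Gjb6, Tor1aip1 and Mkln1, at 0.961, 0.959 and 0.946. For Cyp26b1 they were the integrin gene Itgb5, Smad6 and Glis3, at 0.934, 0.922 and 0.921. Cryl1 and Dlc1 came first for both Rarb (0.933 and 0.932) and Rarg (0.929 and 0.916), followed by Gmds for Rarb (0.930) and 9530026P05Rik for Rarg (0.906). For Rxrg they were the chloride channel gene Ano1, Mamdc2 and Gm29266, at 0.974, 0.972 and 0.963.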

How the data were processed

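The authors deposited UMI counts per gene and nucleus with a table of nuclei that gives class, subtype and stage. Per the submitters' processing notes, Cell Ranger 3.0.2 and mm10 were used, and per the labels the reference held pre-mRNA, so intronic reads count. Filters on nuclei, treatment of doublets and use of strand were not stated in the sources. The deposited percent of mitochondrial and ribosomal UMIs was not used, nor were 7 other columns of the table (embeddings, clusters, reference labels). The total of the counts equalled the deposited total in all 9724 nuclei. Libraries held 19277512 to 31325079 UMIs.

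UMIs were summed per class or subtype and library, since nuclei are not replicates. With 1 library per stage no test between stages was made. Intervals are exact at 95% (Poisson for CPM, Clopper-Pearson for shares, conditional for folds), and 3 counts set the limit at 0. Classes needed 50 nuclei for changes and subtypes 20. A pseudocount of 5 CPM was used for log2 differences. Thinning took 2300 UMIs from each nucleus (the shallowest had 2355, so none was left out). The interval and profile-likeness functions were tested on simulated data. Alternatives were other pseudocounts (1 and 20 CPM), no filter, size factors, weights by nucleus or subtype, and leaving out single nuclei or nuclei with other cells' markers.

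All 10 genes were named, other pathway genes at 50 CPM or more (2 of them are not reported here), the 3 most similar genes (at least 100 CPM in 1 profile) for genes that reach 50 CPM, and the 3 highest neuron subtypes per gene; other subtypes (IN5, EN9 and EN10 for Rarb) were named after their values were seen. Members and lists were chosen with earlier results of these data known. Positions are from GENCODE M21 (GRCm38), promoter windows from RefSeq. Analyses used Python 3.11.15, numpy 2.4.6, scipy 1.17.1, pandas 2.3.3 and matplotlib 3.10.9.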

Additional observations from a re-analysis of the deposited data

Results flagged for a closer look

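From P4 to P21, Rarb differed in direction between classes. Its level at P21 over that at P4 was 1.76 in excitatory neurons (1.56 to 1.999), 2.17 in inhibitory neurons (1.85 to 2.56) and 2.45 in astrocytes (1.47 to 4.30), against 0.573 in vascular leptomeningeal nuclei (0.472 to 0.694). With 1 library per stage, the difference between classes was not tested. It rests on all nuclei of the meningeal class: in the 13 and 43 nuclei with at least 3 fibroblast and no mural UMIs, Rarb was at 186 CPM at P4 and 288 CPM at P21, a ratio of 1.55 (0.866 to 2.97) in the direction of the other classes.

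Rxrg differed in direction between the astrocyte subtypes over the same stages; from P8 to P21 it was lower in both, at 12.9 against 53.9 CPM in protoplasmic and 83.8 against 195 CPM in fibrous nuclei. The ratio of P21 to P4 was 4.73 in fibrous (1.57 to 19.1) and 0.171 in protoplasmic nuclei (0.0949 to 0.294). The difference was not tested, and the fibrous value at P4 rests on 4 UMIs in 48 nuclei.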

How the results depend on the processing

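No paired analysis was possible because each stage has 1 library, and for the same reason no replicate could be left out. Of 238 recomputed log2 differences, 190 stayed within the counting interval of the reported one, 46 moved out of it and 2 reversed; of 352 recomputed levels, 330 stayed within theirs. The reversals were Rxrg in astrocytes, at 0.23 with subtypes weighted alike, and Rarb in vascular leptomeningeal nuclei, at 0.62 in those with at least 3 fibroblast and no mural UMIs. With subtypes weighted alike, Cyp26b1 in astrocytes was at -1.46. Of the moved values, 14 differences and 7 levels of the main comparisons follow; the other 32 differences and 15 levels are given as counts, apart from the levels named here. Where no value shows the cause, it was not tested. With E19 as the first stage in vascular leptomeningeal nuclei, an alternative chosen after seeing the data, the log2 differences were 1.69 for Aldh1a1, 0.92 for Aldh1a2, 0.81 for Cyp26b1 and -1.10 for Crabp2. With each nucleus weighted alike, Rarb in excitatory neurons was at -0.31. A pseudocount of 20 CPM gave 3.57 for Aldh1a1 in astrocytes, 0.81 for Rarb in inhibitory neurons, and 0.54 for Rarg in excitatory and 0.54 in inhibitory neurons; a pseudocount of 1 CPM gave 1.37 and 1.46 for Rarg.

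In the same small set of vascular leptomeningeal nuclei (7, 13, 7 and 43), the log2 difference from P4 to P21 was 1.04 for Aldh1a2 and 4.86 for Cyp26b1. Aldh1a1 was at 168, Aldh1a2 at 581, Cyp26b1 at 140.3 and Rarb at 288 CPM at P21, and Cyp26b1 was at 28.2 CPM at E19, 0 at P4 and 255 CPM at P8. Rarb was at 186 CPM at P4 and 213 CPM at P8, and Aldh1a2 at 280 CPM at P4. Among all nuclei of the class but the top nucleus, Cyp26b1 at E19 was 23.9 CPM. The number of these genes highest in this class was 3, 3 and 3 at P4, P8 and P21 with 20 CPM added. The share of all genes, reported as 7.64%, 9.33% and 8.11%, was not among the values that moved there. Against all 9 classes (chosen after seeing the data) the number was 1 at P4 and 2 at P21. The share of all genes was then 1.92%, 1.99% and 1.57% at P4, P8 and P21, and with no filter it was 4.39%, 5.13% and 4.33%. The share of all genes past 2-fold moved as follows. With 20 CPM added it was 2.28% higher and 4.38% lower in vascular leptomeningeal nuclei, 9.89% lower in astrocytes, 2.76% higher and 5.41% lower in excitatory neurons, and 3.19% higher and 5.92% lower in inhibitory neurons. With no filter it was 5.41% higher and 11.6% lower in astrocytes, 2.39% and 4.81% in excitatory and 2.75% and 5.39% in inhibitory neurons. With size factors it was 6.50% higher in vascular leptomeningeal nuclei. Thinning lowered 106 of 123 shares of nuclei with a UMI beyond their intervals, since fewer UMIs were kept; of 8 shares with Cyp26b1 split by a synthesis gene (an alternative chosen after seeing the data), 1 moved, that with Aldh1a2 at P21, to 22.4%.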

Other observations

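Classes with under 50 nuclei per library held a few further UMIs of these genes. Dividing nuclei had 70.7 CPM of Cyp26b1 at E19 (39.6 to 117, 15 UMIs in 36 nuclei) and 38.5 and 34.7 CPM at P4 and P8 (5 and 8 UMIs), and 69.3 CPM of Rxrg at P4 (31.7 to 131, 9 UMIs in 25 nuclei), both genes that astrocytes also had. Endothelial nuclei had 39.3 CPM of Rarg at P4 (17.96 to 74.6, 9 UMIs) and 67.0 CPM at P8 (35.7 to 115, 13 UMIs in 15 nuclei). Microglia had 99.0 CPM of Aldh1a1 at P21 (49.4 to 177), from 11 UMIs in 3 of 33 nuclei (9.09%), where 58.2% of astrocytes had a UMI.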
